A study of Homo sapiens with 2 samples.

Results

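The interferon-stimulated genes examined here were a list of 45 genes, found on the array by their gene symbols. The list was chosen with earlier results of these data known. Of the 45 genes, 42 had an array probe under a listed symbol, and DDX60 and IRF9 were found under the older names FLJ20035 and ISGF3G, so that 44 genes carried 71 of the 41000 array features for transcripts. A value above background on both arrays was obtained for 36 members, among 19439 genes measured in this way in all. The other 9 members were OAS2, IFI27, IFI44L and XAF1, above background on 1 array only, RSAD2 and BST2, dim on both arrays, DDX58 and IFITM2, whose spots carried a quality mark, and CMPK2, for which no probe was found.

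The arrays compared SAS, a cell line from a human tongue squamous cell carcinoma, with eSAS, the population left after 5 rounds in which large SAS spheroids were held back on the mesh of a filter device and grown again. The selection rounds used a spheroid-forming medium with epidermal growth factor, basic fibroblast growth factor and the supplement B-27 on low-adhesion plates. SAS cells were cultured in medium with fetal bovine serum. The part of the spheroid-forming medium in the values below was not tested. No drug treatment was named for the cultures used for the arrays. Total RNA of each population was taken in logarithmic growth and hybridised to 1 one-colour microarray. eSAS was a single selected population and SAS a single parental culture. With 1 array per population there was no test, and no value below has a p-value or an error between cultures. The SD of spots of 1 probe covers technical error only, and precision is limited by there being 1 array of each.

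Interferons are secreted proteins by which cells warn each other of viral nucleic acid. Type I interferons bind the receptor pair IFNAR1 and IFNAR2, the kinases JAK1 and TYK2 then pass the signal on by phosphorylation, and STAT2 and IRF9 enter the complex ISGF3, which binds the interferon-stimulated response element (ISRE) in the promoters of the induced genes. Type II interferon acts at the gamma-activated site (GAS). A low, tonic level of many of these genes is known in cells without infection.

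The promoters of the members are shown first because they carry the sequence by which this gene set is known. The core of the ISRE was searched as GAAANNGAAA and the GAS as TTCNNNGAA, on both strands, in RefSeq windows of GRCh38.p14 that ran from 250 bases before to 50 bases after each annotated start. Windows were found for 36 of the 45 members, and none was found in the table for IRF7, IFIT2, OAS2, OASL, MX2, GBP2, USP18, IFITM2 and TRIM22. The ISRE core was present in 23 of the 36 members (63.9%), against 1195 of 27305 genes with a window (4.38%). The GAS letters were present in 12 members (33.3%), against 9.38% of all genes. Both were present in 7 members, and their matches shared bases in 5 of these, BST2, EPSTI1, IFI27, IFITM1 and MX1. A further 8 members held neither. A match is a description of the letters and not a binding site shown to be used. Counted per window, 55.1% of the members' 49 windows and 3.57% of all 35116 windows held the ISRE core.

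The 250 bases before the start are printed for the neighbours IFI44 and IFI44L, for DDX60, ISG20 and IFIT1, whose signal was about 2-fold or more higher in eSAS, for EPSTI1, which was lower, and for IFITM3, which was nearly equal. Each sequence runs 5′ to 3′ on the strand of its gene and ends at the base before the start, and capitals mark the ISRE core on either strand. The windows are IFI44 at chr1:78649539-78649788 (plus strand), IFI44L at chr1:78620198-78620447 (plus), DDX60 at chr4:168318753-168319002 (minus), ISG20 at chr15:88638766-88639015 (plus), IFIT1 at chr10:89392373-89392622 (plus), EPSTI1 at chr13:42992242-42992491 (minus) and IFITM3 at chr11:320861-321110 (minus).
IFI44: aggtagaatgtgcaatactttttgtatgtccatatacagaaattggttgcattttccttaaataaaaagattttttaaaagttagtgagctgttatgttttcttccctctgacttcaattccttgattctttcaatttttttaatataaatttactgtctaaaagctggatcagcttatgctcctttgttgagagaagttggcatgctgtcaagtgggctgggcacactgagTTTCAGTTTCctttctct
IFI44L: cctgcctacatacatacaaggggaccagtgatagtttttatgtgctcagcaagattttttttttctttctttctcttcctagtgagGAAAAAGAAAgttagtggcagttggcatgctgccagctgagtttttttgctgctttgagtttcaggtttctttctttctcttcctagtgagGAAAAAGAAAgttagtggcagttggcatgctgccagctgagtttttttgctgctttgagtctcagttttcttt
DDX60: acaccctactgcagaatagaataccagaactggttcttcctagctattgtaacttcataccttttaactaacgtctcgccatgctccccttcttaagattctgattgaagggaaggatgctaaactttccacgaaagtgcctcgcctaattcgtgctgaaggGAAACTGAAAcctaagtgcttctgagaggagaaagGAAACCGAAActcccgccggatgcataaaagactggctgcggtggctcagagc
ISG20: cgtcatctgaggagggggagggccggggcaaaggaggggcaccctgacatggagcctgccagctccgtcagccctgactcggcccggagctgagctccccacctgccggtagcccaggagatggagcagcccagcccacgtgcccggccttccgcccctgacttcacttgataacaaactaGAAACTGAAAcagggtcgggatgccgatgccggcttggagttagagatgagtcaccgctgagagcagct
IFIT1: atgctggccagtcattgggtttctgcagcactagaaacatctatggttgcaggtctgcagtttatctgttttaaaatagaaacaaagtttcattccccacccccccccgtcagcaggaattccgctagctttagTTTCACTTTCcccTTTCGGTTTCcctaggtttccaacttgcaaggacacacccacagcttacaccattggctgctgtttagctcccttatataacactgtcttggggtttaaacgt
EPSTI1: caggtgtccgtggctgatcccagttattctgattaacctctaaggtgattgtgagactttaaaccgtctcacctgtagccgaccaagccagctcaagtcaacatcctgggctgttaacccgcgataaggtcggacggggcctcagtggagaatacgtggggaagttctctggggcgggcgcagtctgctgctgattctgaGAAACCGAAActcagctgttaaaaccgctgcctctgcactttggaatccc
IFITM3: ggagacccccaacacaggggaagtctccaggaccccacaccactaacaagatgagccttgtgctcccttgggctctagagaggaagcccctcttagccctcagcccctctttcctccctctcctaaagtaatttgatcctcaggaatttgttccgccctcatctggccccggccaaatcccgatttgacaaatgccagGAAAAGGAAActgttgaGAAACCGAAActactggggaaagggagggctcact
The core began 18 bases before the start in IFI44, 69 in ISG20 and 50 in EPSTI1. DDX60 held it at 88 and 53 bases before the start, IFIT1 at 116 and 103, and IFITM3 at 52 and 35. In IFI44L the matches at 164 and 73 lay in a run of 85 bases that occurs again 91 bases downstream in the same window. The core was thus in the printed windows of members that were higher, lower and nearly equal. Only members that hold the core were printed, each from its window with the most matches before the start. Its presence in every printed window was therefore fixed by that choice.

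Across the 36 measured members, the median log2 ratio of eSAS to SAS was 0.33, with quartiles of -0.01 and 0.59, and the median over all 19439 genes was -0.00. The members ranged from -1.78 to 2.83 with an SD of 0.71, against an SD of 0.37 over all genes. At least 1.5-fold higher in eSAS were 10 of the 36 members (27.8%), where 3.19% of all genes were, and 2 members were at least 1.5-fold lower (EPSTI1 and TRIM22), where 4.98% of all genes were. At 2-fold, IFI44, OASL, ISG20 and DDX60 were higher, against a background of 1.01%, and TRIM22 was lower, against 1.37%, although its direction turned under the normexp model of the background fitted on all spots. DDX60 fell short of 2-fold without background correction (log2 ratio 0.94) and with normexp fitted without marked backgrounds (0.87), and ISG20 with normexp fitted on all spots (0.73). A log2 ratio above 0 was found for 26 members (72.2%) and for 49.8% of all genes. These counts compare 2 arrays and not replicated conditions, and in RNA from whole cultures more cells that express a gene and more RNA per cell cannot be told apart. Under the normexp model on all spots the median was 0.68 both for the members and for all genes.

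**Figure D1:**
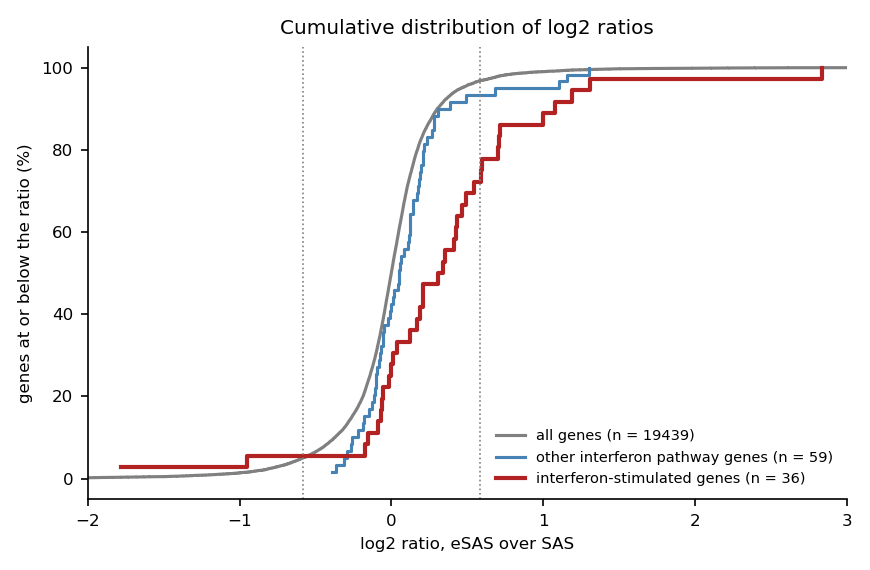
Cumulative share of genes (vertical axis, percent) at or below each log2 ratio of eSAS to SAS (horizontal axis), for the 36 measured members, 59 other genes of the interferon pathway and all 19439 genes, with dotted lines at 1.5-fold. The line of the members lies to the right of the line of all genes over most of its course, with medians of 0.33 and -0.00, and the axis ends at -2 and 3 while single genes of the whole array lie outside it.

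The counts were also read by signal strength. Of the 14 members whose lower signal of the 2 arrays was between 100 and 1000, 6 were at least 1.5-fold higher in eSAS, where 2.51% of all genes in that range were, and 1 was at least 1.5-fold lower, against 5.03%. Among the 17 members above 1000, 3 were higher and none was lower, against 0.878% and 2.14% of all genes there. Below 100, where the arrays were least precise, 1 of 5 members was higher and 1 lower, against 8.36% and 9.84% of all genes. The spots of probes printed 10 times differed in their log2 ratio with an SD of 0.074 (root mean square over 208 probes), and of 0.19 for the 16 such probes with a signal below 100. Different probes of 1 gene differed with a pooled SD of 0.20 over 5299 genes.

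**Figure D2:**
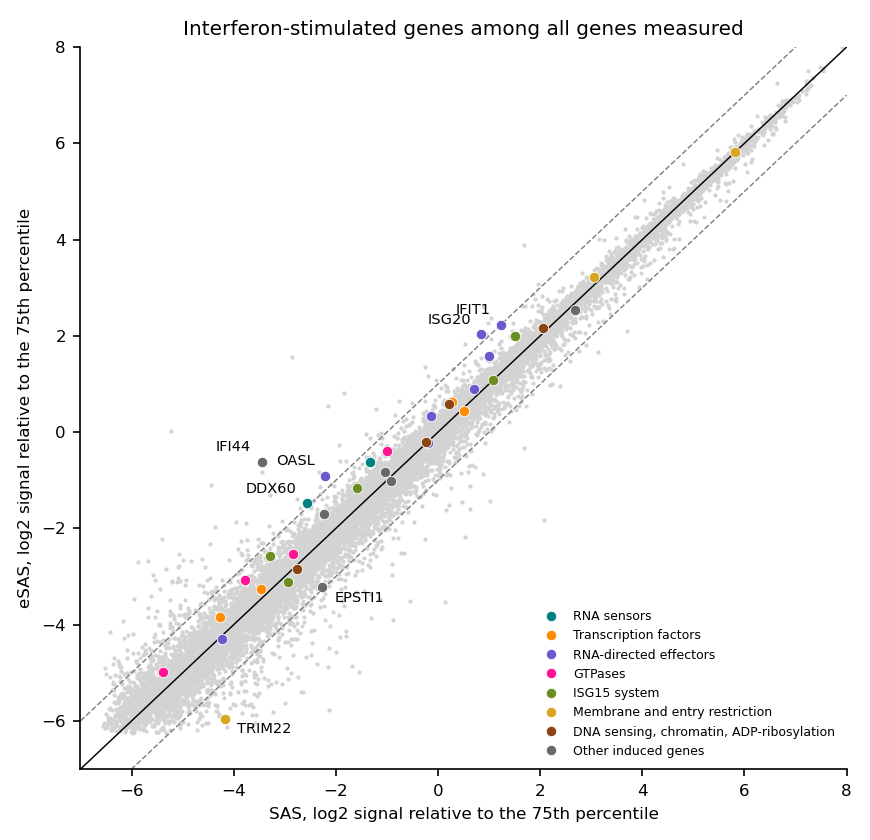
Signal on the SAS array (horizontal axis) and on the eSAS array (vertical axis), each as log2 relative to the 75th percentile of that array, for all 19439 genes in grey and the 36 measured members coloured by role. The solid line is equal signal and the dashed lines are 2-fold, and IFI44, OASL, ISG20 and DDX60 lie above the upper line and TRIM22, whose direction turned under normexp fitted on all spots, below the lower one.

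**Figure D3:**
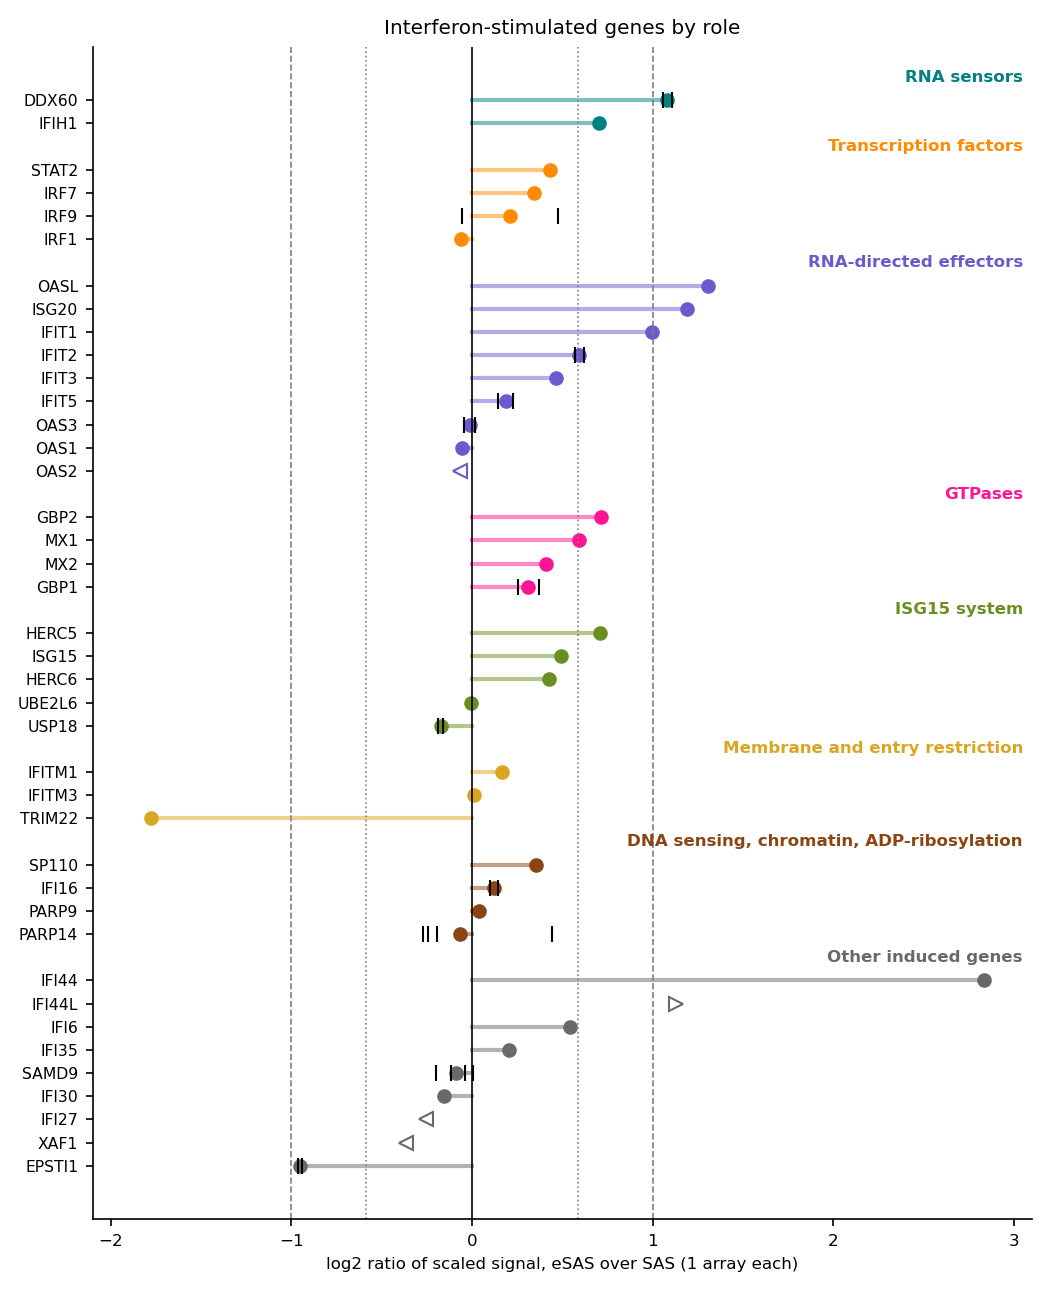
Log2 ratio of eSAS to SAS (horizontal axis) for 40 members grouped by role. Filled circles are gene values, black ticks the single probes of genes with several, open triangles bounds for OAS2, IFI44L, IFI27 and XAF1 that point the way the true ratio may extend, and dotted and dashed lines mark 1.5-fold and 2-fold, and IFI44 at 2.83 and TRIM22 at -1.78, whose direction turned under normexp fitted on all spots, are the ends of the range.

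The RNA sensors detect viral RNA in the cytoplasm and start interferon production. Only 2 could be measured, and both were at least 1.5-fold higher in eSAS, where 3.19% of all genes were. DDX60, a helicase that aids sensing by RIG-I, had probes at chr4:169379466-169379525 and chr4:169374679-169374738 of hg18, with processed signals of 230 and 192 on the SAS array and 478 and 384 on the eSAS array. Their log2 ratios of 1.11 and 1.05 differed by less than the spread between probes of 1 gene, and the gene was 2.12-fold higher. IFIH1, which encodes the sensor MDA5 for long double-stranded RNA, gave a signal of 496 in SAS and 778 in eSAS, a 1.63-fold difference. For DDX58, which encodes RIG-I and is now named RIGI, the only spot was marked as non-uniform on the SAS array, and it is not counted among the measured members.

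The transcription factors that carry the signal to the genome had log2 ratios between -0.06 and 0.43. STAT2, a subunit of ISGF3, gave 64.3 in SAS and 83.5 in eSAS (log2 ratio 0.43), and IRF7, the factor that amplifies the production of interferon alpha, gave 1505 and 1836 (0.34). IRF9, the DNA-binding subunit of ISGF3, had a log2 ratio of 0.21 from probes that did not agree, with 32.5 in SAS and 30.0 in eSAS for one and 386 and 517 for the other. IRF1, an early factor of the response to type II interferon, was nearly equal at 1763 and 1627. None of the 4 factors passed 1.5-fold, where 3.19% of all genes were that much higher and 4.98% lower. The median log2 ratio of the 4 was 0.27, close to the 0.33 of all 36 measured members.

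Of the 8 measured effectors that act on RNA, 4 were at least 1.5-fold higher, where 10 of all 36 measured members and 3.19% of all genes were. The median log2 ratio of the 8 was 0.53. OASL, a relative of the oligoadenylate synthetases that lacks their enzyme activity and supports RIG-I, gave 268 in SAS and 639 in eSAS, a 2.48-fold difference. ISG20, an exonuclease that degrades single-stranded RNA, gave 2237 and 4914, a 2.28-fold difference. Only 0.489% of all genes had a ratio as high as OASL or higher, and 0.612% as high as ISG20.

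Of the IFIT proteins, IFIT1 and IFIT5 recognise the 5′ ends of foreign RNA. The genes of the family lie side by side on chromosome 10 of hg18. IFIT1 (chr10:91153418-91153477) gave 2924 in SAS and 5617 in eSAS, which is 1.99-fold and just below the 2-fold limit. IFIT2, whose probes lay at chr10:91058377-91058436 and chr10:91056593-91056652, gave 12728 and 481 in SAS and 18826 and 687 in eSAS, with log2 ratios of 0.62 and 0.57. IFIT3 gave 1128 and 1499, or 0.46 on the log2 scale, and the 2 probes of IFIT5 had log2 ratios of 0.14 and 0.23. All 4 genes of the group thus had ratios above 0, as 49.8% of all genes had. Only IFIT1 and IFIT2 passed 1.5-fold, where 3.19% of all genes were that much higher. Since the arrays may not separate members of such a family, signal shared between them was not tested.

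The oligoadenylate synthetases, which activate the nuclease RNase L, did not follow OASL. OAS1 gave 66.0 in SAS and 61.1 in eSAS, and OAS3 had probes with log2 ratios of -0.04 and 0.02. OAS2 was above background in SAS only, where it gave 16.5, against 12.9 on the eSAS array, and the bound of 1.05-fold lower does not separate the arrays. OASL lies apart from these neighbours of chr12:111838844-111933043, with its probe at chr12:119942703-119942762. RSAD2, which encodes viperin, was dim on both arrays in each of its 2 probes, with signals between 3.01 and 4.29.

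The 4 GTPases had log2 ratios between 0.31 and 0.71. MX1, a dynamin-like protein that traps viral ribonucleoproteins, gave 625 in SAS and 906 in eSAS (1.51-fold), and MX2, which lies next to it on chromosome 21, gave 29.7 and 38.0 (1.33-fold). GBP2, a guanylate-binding protein that attacks the vacuoles of intracellular pathogens, gave 90.0 and 142 (1.64-fold). The second GBP2 probe was dim on the SAS array at 11.8 and gave 15.8 on the eSAS array, a difference of at least 1.28-fold. GBP1 had probes at 0.25 and 0.37 on the log2 scale. MX1 lies close to the 1.5-fold limit, at which IFIT2 (1.51-fold) was also just inside and IFI6 (1.46-fold) just outside.

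In the ISG15 system, the ubiquitin-like protein ISG15 is attached to newly made proteins. ISG15, HERC5 and HERC6 had log2 ratios between 0.43 and 0.71, and those of the conjugating and deconjugating enzymes were close to 0 or below it. ISG15 gave 3538 in SAS and 4796 in eSAS (1.41-fold). HERC5, the main ligase for ISG15, gave 127 and 201 (1.64-fold), and its relative HERC6 gave 415 and 538 (1.35-fold). UBE2L6, the conjugating enzyme, was equal within the spot error at 2627 and 2520, a log2 ratio of -0.01 after scaling. USP18, which removes ISG15 and also restrains signalling at IFNAR2, had log2 ratios of -0.19 and -0.16 from its 2 probes.

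Of the measured members listed under membrane and entry restriction, IFITM1 and IFITM3 were close to equal and TRIM22 was lower in eSAS. The wide spread of this list came from TRIM22 alone. IFITM1 and IFITM3, which hinder the fusion of viral and cell membranes, gave 10272 and 69504 in SAS and 11096 and 67532 in eSAS, with log2 ratios of 0.17 and 0.01. Their genes share a cluster on chromosome 11 with IFITM2, whose spot was marked as non-uniform on the SAS array and gave 22690 and 26392. TRIM22, a ubiquitin ligase that limits several viruses, gave 68.9 in SAS and 19.3 in eSAS at chr11:5688228-5688287, a 3.43-fold lower signal. A second TRIM22 probe at chr11:5688167-5688226 gave 50.4 and 15.8 and was dim on the eSAS array, a difference of at least 3.08-fold. Both TRIM22 probes were therefore lower, at signals near the limit of detection, and 0.324% of all genes had a ratio as low. The size of this difference depended on the background correction, and without any correction it was -0.71 on the log2 scale, and under normexp fitted on all spots, where all genes had a median of 0.68, it was 2.23. BST2, which tethers budding virus to the cell surface, was dim on both arrays.

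The measured genes of DNA sensing, chromatin and ADP-ribosylation had log2 ratios between -0.07 and 0.36. IFI16, a sensor of DNA in the nucleus and cytoplasm, had probes at 0.15 and 0.10 on the log2 scale, and SP110, a nuclear body protein, was at 0.36. PARP9, an ADP-ribosyltransferase family member that works with DTX3L, was at 0.04. PARP14 is a relative of PARP9 from the same region of chromosome 3, and 3 of its 4 probes lay between -0.27 and -0.19 while the dimmest was at 0.44. None of the 4 genes passed 1.5-fold, where 3.19% of all genes were that much higher and 4.98% lower.

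Among the remaining members, IFI44 had the largest ratio of the set. IFI44, a cytoplasmic protein of the interferon response whose probe lies at chr1:78901067-78901126 of hg18, gave 113 in SAS and 779 in eSAS, a 7.13-fold difference (log2 ratio 2.83). Over the whole array, 7 genes including IFI44 had a ratio this high. The mean and median pixel of its single spot were 151 and 144 on the SAS array and 763 and 744 on the eSAS array, and the 8 spots next to it had a median log2 ratio of 0.16. IFI44L, the related gene beside it, has its probe at chr1:78880178-78880237 and gave 27.0 in eSAS and a dim 2.69 in SAS, a difference of at least 2.18-fold. Both genes of the pair were thus higher in eSAS, the second by a bound only.

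EPSTI1, a gene first found in the interaction of epithelium and stroma, moved the other way. Its probes at chr13:42398538-42426115 and chr13:42358785-42358844 gave 364 and 181 in SAS and 180 and 90.9 in eSAS. The log2 ratios of -0.96 and -0.94 differed by 0.025, and the gene was 1.93-fold lower. These probes lie apart on the array, and the spots next to them had median log2 ratios of -0.19 and -0.08.

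IFI6 and IFI27 belong to a family of small hydrophobic proteins. IFI6 gave 263 in SAS and 368 in eSAS (1.46-fold) at the probe on its own chromosome. The 2 probes listed as IFI6 but placed on another chromosome were left out, a step chosen after the data were seen. The brighter gave 1333 in SAS and 1249 in eSAS, and the other was dim on both arrays. With all such probes kept, the median log2 ratio of the members was 0.28. IFI27 was printed in 10 spots with a lowest, median and highest signal of 18.4, 20.1 and 24.9 in SAS and 12.6, 16.5 and 20.4 in eSAS. All 10 spots were above background in SAS and 2 in eSAS, and 8 of the 10 ratios were below 0, with a mean of -0.26 ± 0.26 (SD of 10 spots of 1 array pair). XAF1, a partner of the apoptosis inhibitor XIAP, was above background in SAS only at 1 of 3 probes, with 20.3 against 3.32, a difference of at least 1.29-fold. IFI35, IFI30, a thiol reductase of the lysosome, and SAMD9, with 4 probes, had log2 ratios of 0.21, -0.15 and -0.09.

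Of the 11 members with several probes measured on both arrays, 8 had probes within 0.2 of each other on the log2 scale. The widest differences were 0.71 in PARP14 and 0.53 in IRF9. DDX60, IFIT2 and EPSTI1 are the members past 1.5-fold that rest on more than 1 probe measured on both arrays, and IFI44, OASL, ISG20, IFIT1, HERC5, IFIH1 and MX1 rest on 1 spot each. GBP2 and TRIM22 rest on 1 such probe and a bound from a second.

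The ratios were set beside the promoter letters, which the choice of members did not use. The 19 measured members with an ISRE core had a median log2 ratio of 0.46, with 7 at least 1.5-fold higher and 1 lower, and 15 above 0, against 3.19%, 4.98% and 49.8% of all genes. The 10 measured members with a window and no ISRE core had a median of 0.16, with none past 1.5-fold in either direction and 6 above 0. Measured members without a window are in neither group. Among them are OASL (1.31), GBP2 (0.71) and IFIT2 (0.59), which were at least 1.5-fold higher. TRIM22 (-1.78), whose direction turned under normexp fitted on all spots, is another. The 10 members with GAS letters had a median of 0.19 and the 19 without had 0.43. The ranges overlapped, from -0.95 to 2.83 with the ISRE core and from -0.15 to 0.43 without it, and no test was made.

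**Figure D4:**
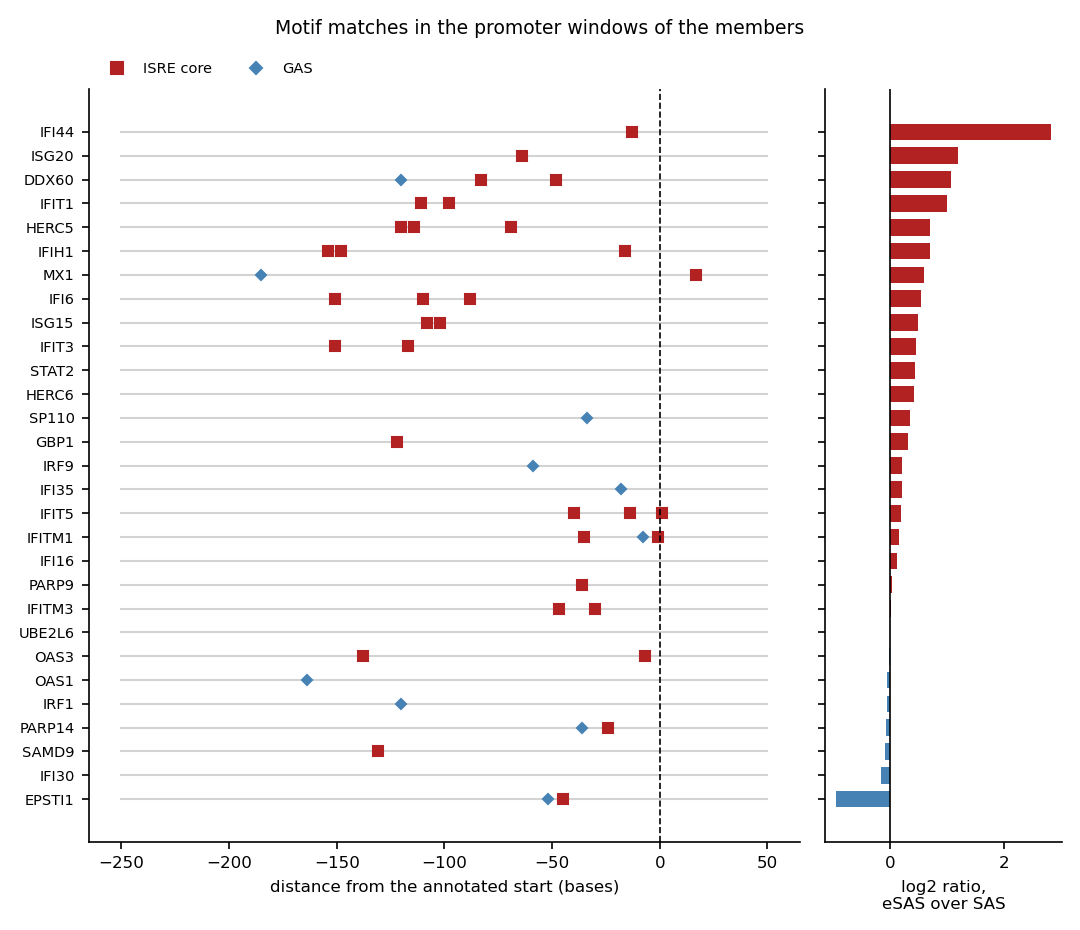
Left, positions of ISRE core matches (red squares) and GAS matches (blue diamonds) in bases from the annotated start, for the 29 measured members with a promoter window, each motif taken from the first listed start whose window holds it. Right, the log2 ratio of eSAS to SAS of the same members, which are sorted by it, so that all 10 rows at the top, from IFI44 to IFIT3, and EPSTI1 at the bottom can be seen to hold an ISRE core. Measured members without a window, among them OASL, GBP2, IFIT2 and TRIM22, are not shown.

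Other genes of the interferon pathway, 80 in 6 lists, were read for comparison, and 59 were measured. Of these, 4 were at least 1.5-fold higher in eSAS and none was lower, where 3.19% and 4.98% of all genes were. A ratio above 0 was found for 34 of the 59, against 49.8% of all genes, and the median log2 ratio was 0.05. The ligands were mostly not detected. Of 21 interferon genes 16 had a probe and 4 were above background on both arrays, and IFNB1, the interferon beta gene, was dim on both with 2.87 and 4.50. IFNE, an interferon of epithelia, gave 243 in SAS and 181 in eSAS.

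Of the receptors, IFNAR2 gave 20.9 in SAS and 43.3 in eSAS, a 2.15-fold difference at low signal from 1 spot, while IFNAR1 had a log2 ratio of 0.23. IFNGR1, IFNGR2, IFNLR1 and IL10RB lay between -0.15 and 0.21. The kinases JAK1, JAK2 and TYK2 were at -0.11, -0.06 and 0.18, and STAT3 was at 0.12. None of these passed 1.5-fold.

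Among the genes of upstream sensing, IKBKE, a kinase that activates IRF3 and IRF7, gave 27.3 and 58.7 (2.23-fold), and DHX58, the third receptor of the RIG-I family, gave 84.3 and 130 (1.61-fold). The inhibitors lay between -0.39 for SOCS1 and 0.13 for IRF2. A further 26 measured interferon-induced genes outside the members had a median of 0.00 with 13 above 0, and RTP4, a chaperone of membrane receptors, was the only one past 1.5-fold, with 108 in SAS and 256 in eSAS (2.47-fold). The median of this second list of induced genes thus lay at that of all genes.

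**Figure D5:**
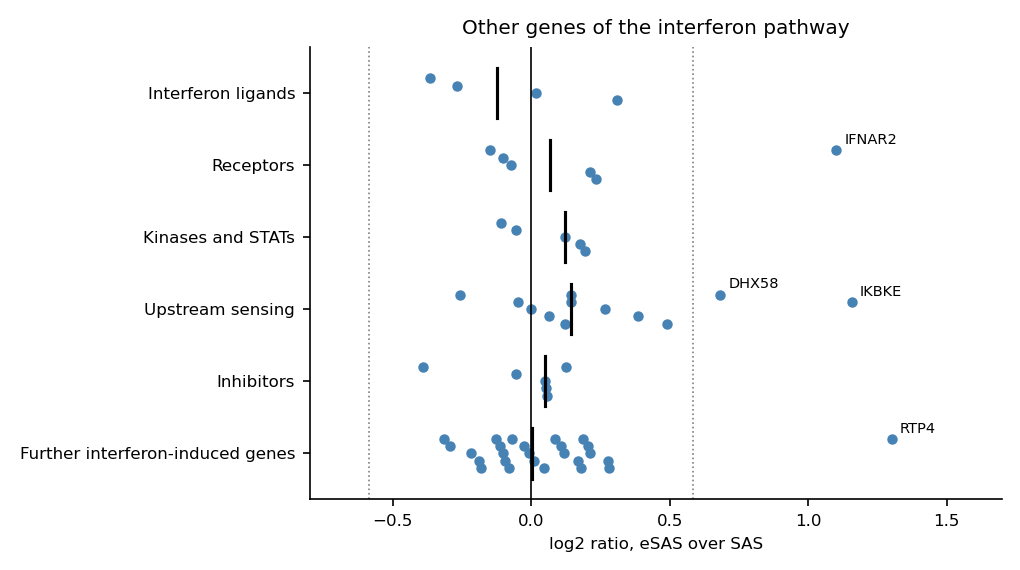
Log2 ratio of eSAS to SAS (horizontal axis) for 59 measured genes of the interferon pathway outside the members, in 6 lists, with each list's median as a black bar and 1.5-fold as dotted lines. IFNAR2, IKBKE, DHX58 and RTP4 lie past the upper line, and the medians lie between -0.13 and 0.14.

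The labelled cell type was checked by its markers, and all 11 genes of squamous epithelium were above background on both arrays. Of these, 5 were at least 1.5-fold lower and 1 higher in eSAS, against 4.98% and 3.19% of all genes. KRT14 had a log2 ratio of -3.90, the mean of probes that disagreed in size at -6.58 and -1.23. Of 7 leukocyte markers, CD14, CD68 and CSF1R were above background on both arrays, with log2 ratios between -0.02 and 0.17, while PTPRC, CD3E and ITGAM were dim on both. Of 4 markers of plasmacytoid dendritic cells, cells known for making interferon, IL3RA was left out by the filters on probes, and none of the other 3 was above background on both arrays. None of the 6 fibroblast markers was, but LUM was above background in eSAS only (3.21 in SAS and 29.6 in eSAS) and COL1A1 in SAS only. Of 4 endothelial markers, VWF was above background on both arrays, with 86.0 in SAS and 77.1 in eSAS, and CDH5 in SAS only. Of 43376 spots for transcripts, 69.4% in SAS and 67.5% in eSAS were well above background. On the SAS array 194 spots were marked as non-uniform, and 183 of them lay in rows 450 to 510, where 8 members had at least 1 spot, none of them among the measured members past 1.5-fold.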

How the data were processed

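Total RNA of SAS and eSAS cells was labelled with Cy3 and hybridised to 1 array each, both on 1 slide. The authors deposited the output of Agilent Feature Extraction 10.7.3.1, per the labels, in which the intensity of each spot had been background-subtracted and detrended within the array without scaling between arrays. The authors' series table held the same intensity values in all 45015 spots. Probe coordinates are those of the array in hg18.

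Processed signals were log2-transformed after division by the 75th percentile of their array, 1242 for SAS and 1196 for eSAS. Control spots and spots with a non-uniformity or population-outlier mark on either array were left out. Replicate spots were averaged per probe, and a probe was taken as above background if over 50 percent of its spots had that call. A gene's value was the mean over its probes above background on both arrays. Where a probe was dim on 1 array, the higher of its signal and the lowest signal above background (12.8 for SAS and 15.2 for eSAS) gave a bound. Probes were named through accessions and symbols of the RefSeq gene table, and 109 probes placed on another chromosome than their gene were left out, among them 2 listed as IFI6. That last step was chosen after the data were seen.

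No replicate existed, so counts at 1.5-fold and 2-fold and medians are given beside those of all genes, with no test. The members and lists were chosen with earlier results of these data known. Every member could be named. Full values were given for members with a probe measured on both arrays, or a bound, past 1.5-fold. The others are given by role. The BST2 probe and a second IRF7 probe differed by more than 1.5-fold but were dim on both arrays, and their values are not given. Of the pathway genes, receptors, kinases, STATs and genes past 1.5-fold are named, and IFNB1, IFNE, SOCS1 and IRF2 were added as examples. A few results of single genes are not reported here. Promoter windows came from RefSeq. Alternatives covered scaling, background, filters on dim or marked spots, array rows, the source of the values and the value per gene. The counting was tested on simulated data. Python 3.11.15, R 4.3.3 and limma 3.58.1 were used.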

Additional observations from a re-analysis of the deposited data

Results flagged for a closer look

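DDX58, the gene of the sensor RIG-I, was left out of the counts because its only spot was marked as non-uniform on the SAS array, and that spot nevertheless carried a signal. It gave 575 in SAS and 1430 in eSAS, a 2.58-fold difference after scaling. On the SAS array its mean pixel was 510 and its median pixel 588.5, and on the eSAS array they were 1210 and 1183. The spot lies in row 500, within the rows that hold most of the marked spots of the SAS array, and the part of the mark in this value was not tested.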

How the results depend on the processing

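Over 13 alternatives to the processing of the 6 summary values of the member list, 66 of 78 values stayed near the main value. Counts had to stay within 1.5 times the count given, and the median within 0.074, the SD of spots of 1 probe. That SD is not an error of the median over members. The authors' series table, 1 of the 13, held the same intensities, so its 6 values could not differ. With normexp and an offset of 50 fitted on all spots, the median was 0.68, with all genes at 0.68 as well, 19 members were at least 1.5-fold higher (52.8%, against 52.4% of all genes), 15 were 2-fold or more higher and 0 were 2-fold or more lower, and TRIM22 turned to 2.23. That setting moved the median of all genes by more than any other, and relative to it the members differed by -0.00. With normexp fitted after removal of spots with a marked local background, the median was 0.20, 6 members were 1.5-fold or more higher (16.7%, against 1.19%) and 0 were 2-fold or more lower. Without background correction 0 members were at least 2-fold lower. Without a filter on dim probes the median was 0.22 against 0.06 over all genes, with 4 members at least 1.5-fold and 2 at least 2-fold lower. Without scaling, 2 were at least 2-fold lower. The causes were not tested. The log2 ratio of IFI44 lay between 2.19 and 2.87 over all alternatives, and those of OASL, ISG20 and DDX60 between 1.12 and 1.51, 0.73 and 1.22, and 0.87 and 1.51. Apart from the fit on all spots, TRIM22 stayed below 0, at -0.70 to -1.83. The alternative that kept probes on another chromosome was chosen after seeing the data. A slide block could not be fitted because the arrays shared their slide. No paired analysis was possible because each group had 1 array and no test was made. Signal near background limits the values of TRIM22, OAS2, IFI27, IFI44L, XAF1, MX2, IFNAR2 and IKBKE.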
